A study of Homo sapiens with 5 samples.

Results

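SN12C is an established human renal cell carcinoma line, and its baseline expression is described here from 2 of the 5 arrays of the series. These are the arrays whose titles name the parental cell line, and the labels call that line non-metastatic and the arrays biological replicates. No treatment, medium, passage or clone is given in the sources used here, and the labels do not say whether the replicates were separate cultures. Total RNA was hybridised to Affymetrix expression arrays with 54675 probe sets each. The other 3 arrays hold lung-metastatic derivatives of SN12C and enter no comparison below. The series as a whole was set up to relate gene expression to metastatic behaviour. The question here is which genes give a strong signal, and which give none above background, on both parental arrays.

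Most renal cell carcinomas are held to arise from the epithelium of the nephron tubule. Tubule cells are specified by transcription factors such as PAX8 and PAX2 and carry transporters that reclaim filtered solutes, with megalin (LRP2) and cubilin (CUBN) taking up protein in the proximal part. Simple epithelia build their intermediate filaments from keratins 8 and 18 and join through E-cadherin (CDH1), whereas mesenchymal cells rely on vimentin (VIM) and N-cadherin (CDH2). Renal carcinoma cells often carry both filament systems.

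A gene was read through 1 probe set, the one with the highest mean over both SN12C arrays, which gave 19775 genes. The median gene had a log2 signal of 7.44 on each array. Background was set by 154 genes of olfactory receptors, taste receptors and keratin-associated proteins, families largely restricted to sensory tissue and hair. The 95th percentile of these genes was 7.66 log2 units on replicate 1 and 7.26 on replicate 2, and a gene at or below both limits is called at background. A gene is called high where it reached the 90th percentile of genes on both arrays, 10.67 and 10.98. Over all genes, 8.79% were high, 45.5% were above the background limit on both arrays, 46.3% were at background on both and 8.25% lay on different sides of it. At least 1 log2 unit above the limit on both arrays were 31% of genes, which are called clearly above background. The limits are not sharp: 5 of the 154 reference genes exceeded them on both arrays, 3 of these clearly. With the 40th percentile of all probe sets as the limit (6.08 and 6.01), 14551 rather than 8997 genes were above background. Just inside the high class lay NT5E, an ectonucleotidase, at 10.67 and 11.19 and just outside it TNFRSF1A, a TNF receptor, at 10.67 and 11.28. Just above the background limit on both arrays lay INHBA, an activin chain, at 7.77 and 7.26, and just short of that GGT1, a brush-border enzyme, at 7.66 and 7.57. Signals of different genes also depend on the binding strength of their probes, so ranks order signals and not RNA amounts, and no fold between genes is given.

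**Figure D1:**
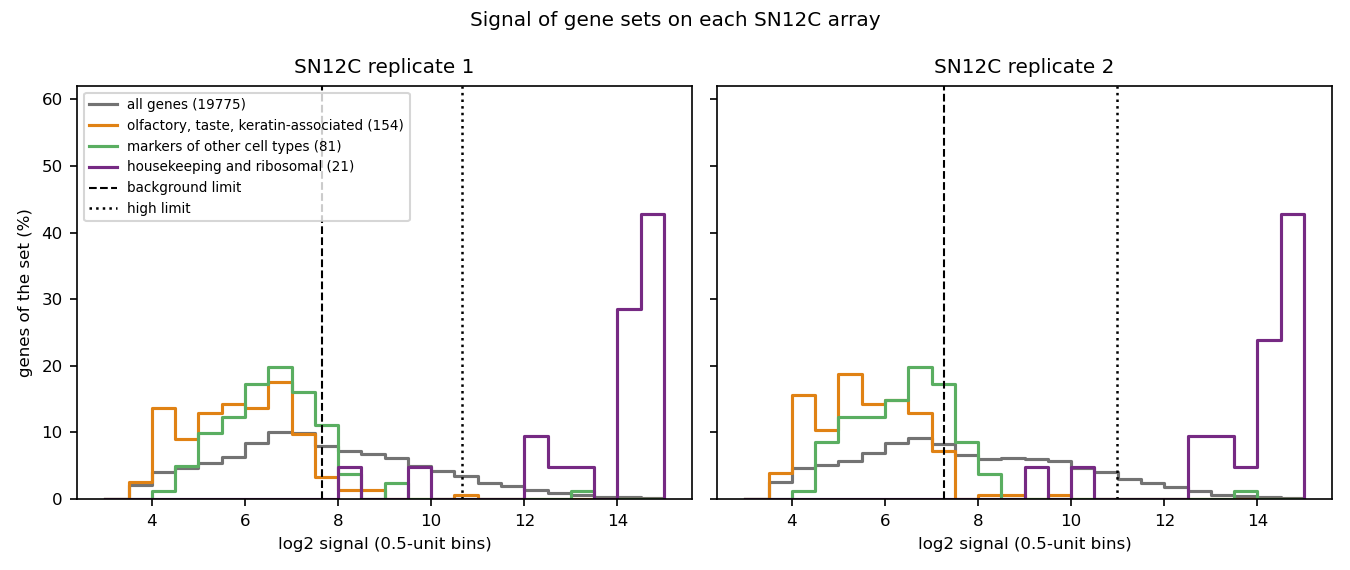
Share of genes (y axis, %) per 0.5-unit bin of log2 signal (x axis) on each SN12C array, for all 19775 genes, the 154 reference genes, 81 markers of other cell types and 21 housekeeping genes. Dashed and dotted lines mark the background limit (7.66 and 7.26) and the high limit (10.67 and 10.98). Most reference genes and most markers of other cell types sit left of the dashed line, and the housekeeping genes sit to its right.

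In what follows, paired values are log2 signals of replicate 1 and then replicate 2. The markers given with this line were above background on both arrays, though not equally. VIM stood at 14.15 and 14.26 and KRT18 at 14.04 and 14.72, both among the strongest 1% of genes on each array. MIF, macrophage migration inhibitory factor, read 13.17 and 13.48 (percentiles 98.9 and 99.1). The neutrophil chemokine CXCL5 read 11.21 and 11.48 (percentiles 93.2 and 93.0), through a probe set of a type that can bind several transcripts. Its other probe sets read 7.72 and 9.8, and 4.04 and 4.61, so the level of CXCL5 depends on the probe set. PAX8 read 9.82 and 9.34, below the high limit on both arrays (percentiles 82.6 and 73.8). Of its 7 other probe sets, 1 was above background on both arrays, at 8.01 and 7.71, and the other 6 were at background. The mean ± SD over the arrays (n = 2) was 14.21 ± 0.08 for VIM, 14.38 ± 0.48 for KRT18, 13.33 ± 0.22 for MIF, 11.35 ± 0.19 for CXCL5 and 9.58 ± 0.34 for PAX8. These genes were chosen with such values known, so their levels are a description of the line and no test.

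**Figure D2:**
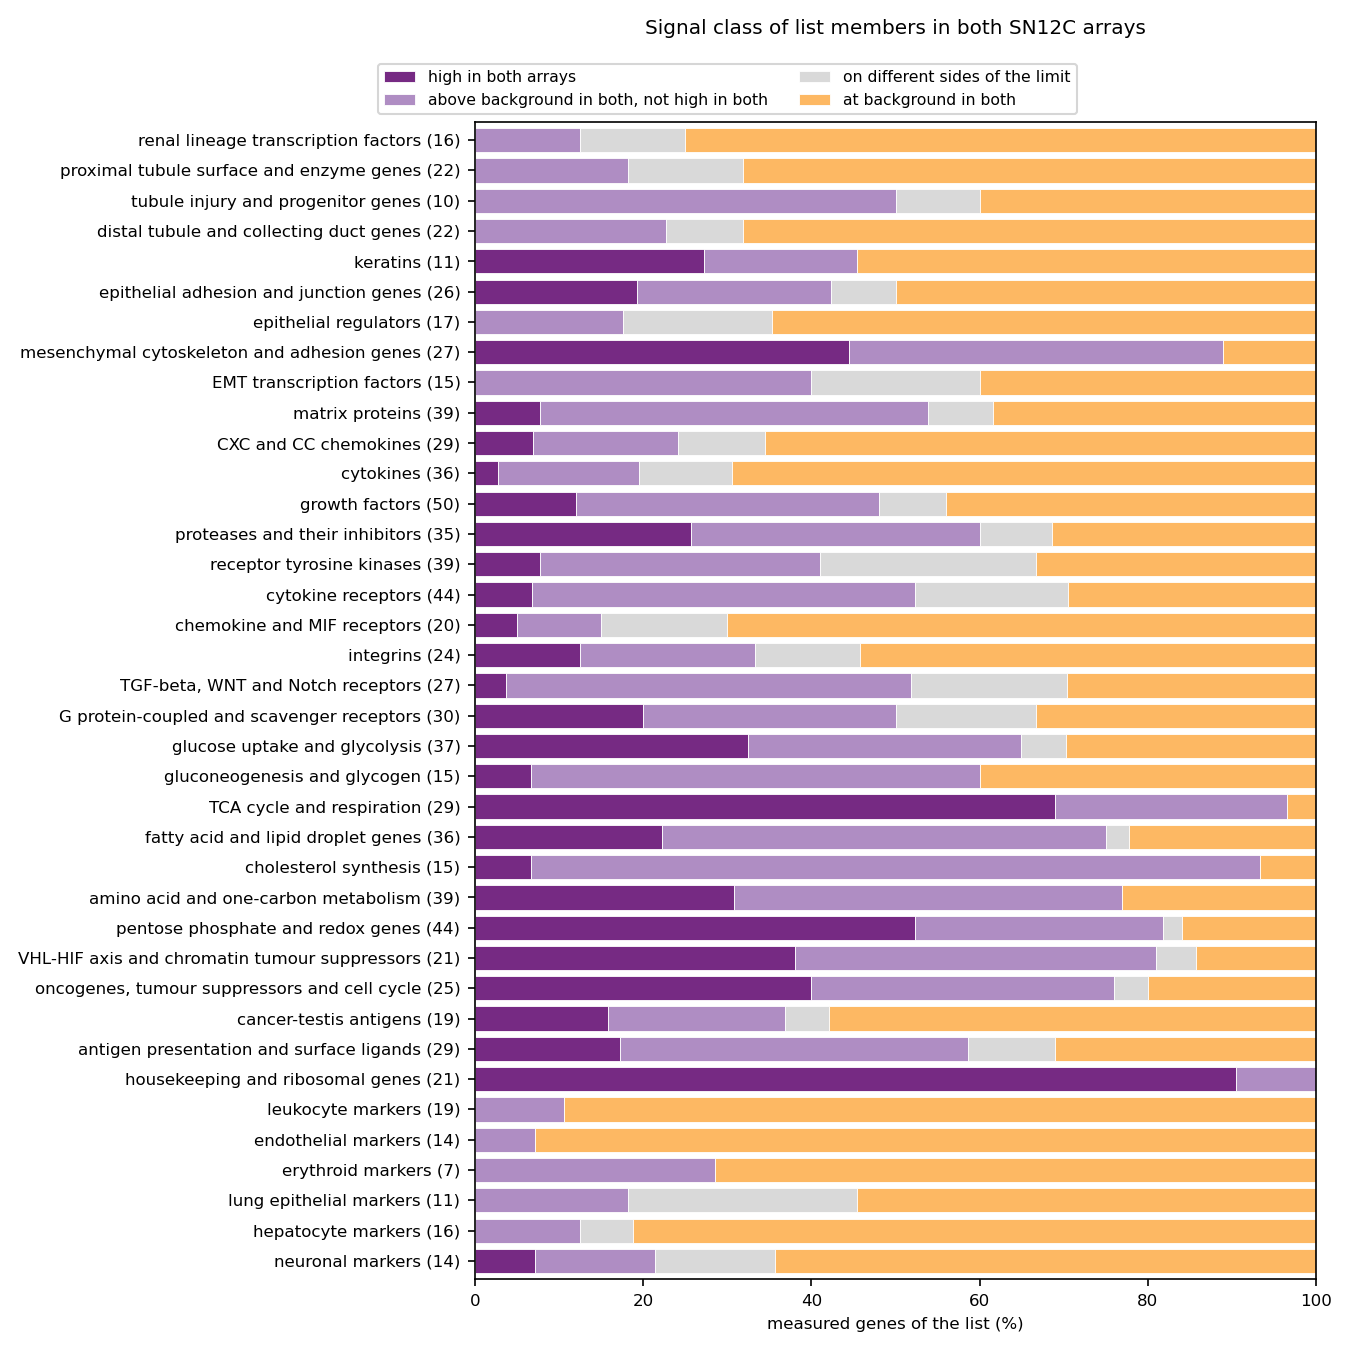
Share of the measured genes (x axis, %) of 38 gene lists (y axis, number measured in brackets) in each signal class over both SN12C arrays. Respiration, housekeeping and redox lists are mostly high, while the chemokine, cytokine, leukocyte, endothelial and renal transcription factor lists are mostly at background, against 46.3% at background over all genes.

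Of 70 measured genes in the tubule lists, 46 (65.7%) were at background on both arrays, 16 (22.9%) were above and 0 were high, against 46.3%, 45.5% and 8.79% of all genes. Only 7 of the 16 were clearly above background, and when a gene's probe sets were summarised by their median 9 were above. With the 40th percentile of all probe sets as the limit, 39 of the 70 were above it. Among 16 renal lineage transcription factors, 2 were above background on both arrays, PAX8 and IRX3, a homeobox factor of nephron patterning at 9.8 and 9.74. WT1, a factor of the early kidney and the podocyte, lay on different sides of the limit at 7.46 and 8.83, and HOXD8 did so at 7.47 and 7.59. PAX2, the close relative of PAX8, was at background at 6.34 and 6.43, and LHX1 was too at 6.06 and 6.08. The lowest of this list were SALL1 at 3.68 and 3.76, EMX2 at 4.38 and 4.11 and ESRRG at 5.19 and 4.66. Through the probe set in use PAX8 was therefore above background, while PAX2, LHX1, EMX2 and SALL1 were not. Of the 7 other PAX8 probe sets, 6 were at background.

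Among 22 genes of the proximal tubule, 15 were at background and 2 were clearly above it. Those 2 encode brush-border peptidases: neprilysin (MME) at 10.6 and 10.93, just under the high limit, and aminopeptidase N (ANPEP) at 10.21 and 9.92. The second probe set of MME read 10.61 and 10.49, while the other probe sets of ANPEP were at background. KHK, the fructose kinase, at 7.81 and 8.29, and SLC6A19, a transporter of neutral amino acids, at 8.05 and 7.99 were less than 1 unit above the limit on at least 1 array. The protein uptake receptors CUBN (5.92 and 5.52) and LRP2 (5.33 and 5.22) were at background, as were the glucose transporters SLC5A2 (7.17 and 6.87) and SLC5A1 (6.16 and 5.87). The water channel AQP1 (6.31 and 5.96) and the phosphate transporter SLC34A1 (6.97 and 7.03) were at background too. DPP4, another brush-border peptidase, differed between the arrays at 6.78 and 8.09. The lowest values were those of PDZK1 at 4.58 and 4.36 and ENPEP at 3.93 and 3.87.

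Of 10 genes tied to tubule injury or progenitor cells, 5 were above background, 3 clearly: CLU, the chaperone clusterin, at 9.4 and 10.03, SOX9, a factor of regenerating tubule cells, at 9.57 and 8.96, and KRT19 at 8.92 and 9.54. CD24, a surface sialoglycoprotein, differed more between the arrays than any other gene of the tubule lists, at 7.68 and 11.1. Of its 6 probe sets, this one included, 5 read at least 2 log2 units higher on replicate 2. HAVCR1, the injury marker KIM-1 (4.7 and 4.38), PROM1 (4.29 and 4.34) and VCAM1 (4.78 and 4.46) were at background. Of 22 genes of the distal tubule and collecting duct, 15 were at background and 5 were above, none of them clearly. AQP2, the water channel of the collecting duct, was such a case at 7.92 and 7.6, and CALB1 (4.25 and 4.25), SLC26A4 (4.36 and 3.87) and CLDN8 (4.28 and 4.35) had the lowest signals. UMOD was not analysed here.

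The epithelial genes split by role. Of 54 measured, 8 (14.8%) were high, 19 (35.2%) were above background and 30 (55.6%) were at background. The shares over all genes were 8.79%, 45.5% and 46.3%. Of the 8 high genes, 5 belonged to junctions and 3 were keratins: KRT18, its partner KRT8 at 12.46 and 13.21, and KRT80 at 11.02 and 12.05. KRT19 and KRT7 (8.25 and 7.91) were above background and not high. KRT7 was less than 1 log2 unit above the limit on each array, and its other probe sets were at background on both. The keratins of stratified epithelia, KRT5 (7.59 and 6.8), KRT14 (5.43 and 5.39) and KRT15 (6.4 and 6.48), were at background, and so was KRT20 (4.7 and 4.52). The probe sets of KRT8 and KRT18 are single and of a type that can bind related sequences.

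Junction genes showed tight-junction and catenin signal without E-cadherin. CLDN11, a claudin best known from myelin and testis, gave the highest signal of 26 junction genes at 13.59 and 12.99, with a second probe set at 9.52 and 9.2. CTNNA1, which links cadherins to actin, read 12.45 and 12.55, CLDN1 read 11.86 and 11.24 and the scaffold TJP1 read 11.36 and 11.5. Occludin (OCLN, 10.63 and 10.67) and beta-catenin (CTNNB1, 10.54 and 10.05) were clearly above background. CDH1 was at background at 5.11 and 4.83, as were EPCAM at 4.54 and 4.17 and desmoplakin (DSP) at 4.52 and 4.73, the 3 lowest of the list. The claudins CLDN3 (6.86 and 7.03), CLDN4 (7.22 and 6.82) and CLDN7 (6.37 and 6.31) were at background as well. Of 17 regulators of the epithelial state, 11 were at background and 0 clearly above it. Among them GRHL2, an activator of CDH1, read 5.14 and 4.76, and the splicing factor ESRP1 read 6.11 and 5.78.

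Mesenchymal cytoskeleton and adhesion genes had the opposite pattern. Of 27 measured, 24 (88.9%) were above background and 12 (44.4%) high, against 45.5% and 8.79% of all genes. Below VIM stood AXL, a receptor tyrosine kinase, at 13.94 and 13.61, galectin 1 (LGALS1) at 13.59 and 13.71, caveolin 1 (CAV1) at 13.63 and 13.45 and CD59, an inhibitor of complement, at 13.21 and 13.47. N-cadherin (CDH2) was clearly above background at 10.2 and 10.27. THY1 (9.73 and 10.83) and CNN3 (10.94 and 12.17) read over 1 unit higher on replicate 2. A second CNN3 probe set went the other way, at 11.76 and 11.09, so the difference for CNN3 depends on the probe set. Smooth muscle actin (ACTA2, 6.92 and 6.89), NCAM1 (7.19 and 7.19) and CDH11 (6.57 and 6.52) were at background, so the list was not detected throughout. CALD1 was near the limit at 7.68 and 7.38 and its 10 other probe sets were at background.

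Of 15 transcription factors of the epithelial-mesenchymal transition, 6 (40%) were above background, 6 (40%) at background and 0 high. The shares over all genes were 45.5%, 46.3% and 8.79%, so this list was not above them. ZEB1, a repressor of CDH1, read 10.24 and 10.17, TWIST1 8.87 and 9.51, SNAI2 8.95 and 8.95 and TWIST2 8.61 and 8.98. RUNX2 was higher on replicate 1, at 9.73 and 8.58. SNAI1 (6.63 and 6.77) and PRRX1 (6.45 and 6.12) were at background, and SNAI3 was the lowest at 5.14 and 5.14.

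**Figure D3:**
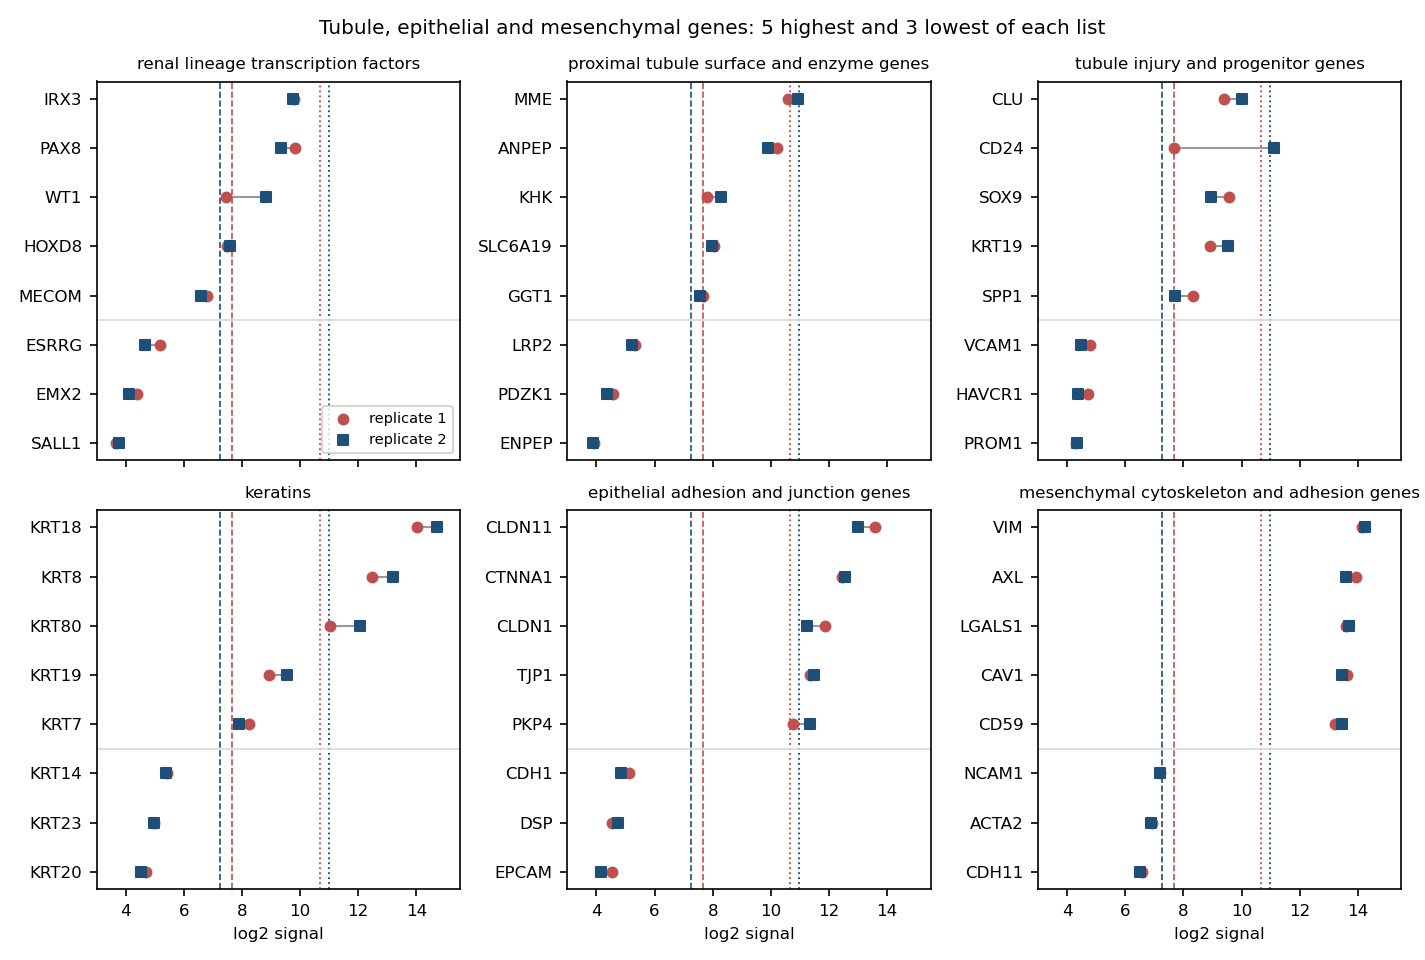
Log2 signal (x axis) on SN12C replicate 1 (circles) and replicate 2 (squares) for the 5 highest and 3 lowest genes of 6 lists, joined by a line. Dashed lines mark the background limit and dotted lines the high limit of each array. KRT18, CLDN11 and VIM lie beyond the dotted lines, while CDH1, LRP2, ENPEP and PROM1 lie left of the dashed lines, and CD24 spans 7.68 to 11.1.

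Among 39 matrix genes, 21 (53.8%) were above background, against 45.5% of all genes. The 3 high genes were CCN1, a matricellular protein, at 13.56 and 13.2, SPARC at 13.11 and 13.25 and the laminin chain LAMC1 at 11.46 and 11.03. Basement membrane chains COL4A2 (10.12 and 10.3) and COL4A1 (8.85 and 9.46) and the linker NID1 (9.89 and 10.09) were clearly above background. Fibronectin (FN1) was at background at 6.84 and 6.84, and so were its 6 other probe sets. COL3A1 (6.98 and 8.98) and TGFBI (10.47 and 12.08) read higher on replicate 2, and tenascin C (TNC, 10.71 and 9.25) on replicate 1. LUM (4.1 and 4.1), NID2 (4.4 and 4.7) and POSTN (5.11 and 4.8) gave the lowest signals.

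Of 35 proteases and inhibitors, 21 (60.0%) were above background and 9 (25.7%) high, against 45.5% and 8.79% of all genes. The lysosomal cathepsins CTSB (12.9 and 12.9) and CTSL (11.74 and 12.16) were high, beside the cysteine protease inhibitor CSTB at 12.62 and 12.91. The plasminogen activator urokinase (PLAU) was high at 12.31 and 12.52, and the metalloprotease inhibitors TIMP2 (12.23 and 12.44) and TIMP1 (12.07 and 12.42) were as well. Matrix metalloproteases were mostly low: the collagenase MMP1 (4.93 and 4.54), the stromelysins MMP3 (4.15 and 4.19) and MMP10 (4.82 and 4.96) and the gelatinases MMP2 (6.47 and 6.47) and MMP9 (7.4 and 7.25) were at background. The membrane-bound MMP14 was clearly above background at 9.46 and 8.71. TFPI2, a Kunitz-type inhibitor, differed between the arrays at 7.05 and 9.15.

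Over all 150 measured genes of the secreted lists, proteases included, 59 (39.3%) were above background, 18 (12%) high and 77 (51.3%) at background, against 45.5%, 8.79% and 46.3% of all genes, and 9 of the 18 were proteases or their inhibitors. Among 29 chemokines, 19 were at background and 2 were high, CXCL5 and CCL2, which draws monocytes, at 11.32 and 11.54. Of the other chemokines that attract neutrophils, 4 were not level between the arrays. CXCL8, interleukin 8, read 13.3 and 9.25, CXCL2 12.54 and 10.19, CXCL3 10.59 and 7.38 and CXCL1 10.19 and 7.86. Each of these 4 was over 2 log2 units higher on replicate 1, while CXCL5 differed by -0.27 (replicate 1 minus replicate 2) through the probe set used. A second CXCL5 probe set above background went the other way from these 4, at 7.72 and 9.8. The second probe set of CXCL8 read 11.19 and 8.44, and both other probe sets of CXCL2 were at background. CXCL6 (4.95 and 4.5) and PPBP (4.91 and 4.41), of the same receptor group, were at background, as were the interferon-induced CXCL10 (6.12 and 5.54) and CXCL11 (3.87 and 3.84). The chemokine CXCL12 (6.86 and 6.32) was at background too.

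The 250 bases before the annotated starts of CXCL8, CXCL2 and CXCL3, whose probe sets in use read higher on replicate 1, and of the marker CXCL5 are shown for their kappaB-type elements, the class of site that NF-kappaB binds. The sequences are from RefSeq, build GRCh38.p14, 5′ to 3′ on the strand of the gene, and capitals mark matches to GGNNTTTCC, searched on both strands.
CXCL8 (chr4:73740319-73740568, + strand): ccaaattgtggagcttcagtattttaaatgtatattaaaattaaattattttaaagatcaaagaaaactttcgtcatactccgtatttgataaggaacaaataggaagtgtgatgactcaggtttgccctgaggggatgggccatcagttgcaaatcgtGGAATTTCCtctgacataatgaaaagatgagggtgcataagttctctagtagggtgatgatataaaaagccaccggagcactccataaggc
CXCL2 (chr4:74099196-74099445, - strand): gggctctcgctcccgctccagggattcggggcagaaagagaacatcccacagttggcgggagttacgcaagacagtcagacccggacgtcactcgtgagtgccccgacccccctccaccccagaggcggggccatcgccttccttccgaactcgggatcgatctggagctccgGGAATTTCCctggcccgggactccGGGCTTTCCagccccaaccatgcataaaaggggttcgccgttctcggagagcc
CXCL3 (chr4:74038690-74038939, - strand): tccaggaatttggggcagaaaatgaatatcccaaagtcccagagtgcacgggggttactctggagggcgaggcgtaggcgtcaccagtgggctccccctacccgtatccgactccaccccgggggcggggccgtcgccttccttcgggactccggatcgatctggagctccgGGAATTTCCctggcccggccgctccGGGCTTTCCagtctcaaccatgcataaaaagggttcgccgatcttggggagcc
CXCL5 (chr4:73998678-73998927, - strand): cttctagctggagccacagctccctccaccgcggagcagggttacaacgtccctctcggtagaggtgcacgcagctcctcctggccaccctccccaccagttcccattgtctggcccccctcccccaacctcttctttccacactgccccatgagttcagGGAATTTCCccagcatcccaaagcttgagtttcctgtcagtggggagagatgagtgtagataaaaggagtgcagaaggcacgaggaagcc
The 250 bases before the start held 1 match in CXCL8 and CXCL5 and 2 in CXCL1, CXCL2 and CXCL3, while 5.48% of 34788 distinct windows of this length held any. The other genes that differed between the arrays were not searched. A match is not a measured binding site.

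Cytokine genes were mostly at background, 25 of 36 (69.4%), against 46.3% of all genes. MIF was the 1 high gene. IL6, the acute-phase cytokine, read 11.64 and 10.73, and IL32 read 9.08 and 8.64, LIF 9.21 and 8.45 and CSF1 8.21 and 8.82. The interleukin 1 genes differed between the arrays, IL1A at 9.51 and 6.59 and IL1B at 8.47 and 7.33. The stress-induced GDF15 was above the limit on replicate 1 alone, at 8.02 and 6.57. TNF (6.44 and 6.12), IL10 (4.47 and 4.67) and IFNG (4.79 and 4.77) were at background, and IL33 (4.02 and 3.8), TSLP (4.08 and 3.84) and IFNA1 (4.06 and 4.08) were lowest.

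Of 50 growth factors and related ligands, 24 (48.0%) were above background, near the 45.5% of all genes, and 6 were high. These were adrenomedullin (ADM), a vasodilator peptide, at 12.16 and 13.3, the WNT pathway proteins DKK3 (12.84 and 12.45) and DKK1 (12.34 and 11.79), PDGFC (11.86 and 12.13), GAS6 (11.9 and 11.2) and FGF2 (11.08 and 11.44). VEGFA, the main angiogenic factor of clear cell renal carcinoma, was clearly above background and not high, at 9.32 and 8.61. TGFB1 read 9.76 and 9.99 and HBEGF, a ligand of EGFR, 9.76 and 9.92. HGF (6.94 and 6.54), TGFA (6.93 and 6.79) and EPO (6.43 and 6.7) were at background. EGF (3.97 and 3.81), FGF7 (4.02 and 4.13) and BTC (4.17 and 4.15) gave the lowest signals of the list.

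Receptor genes were near the share of all genes: of 184 measured, 17 (9.24%) were high and 79 (42.9%) above background, against 8.79% and 45.5% of all genes. Many lay close to the limit, and 49 were clearly above it. Of 39 receptor tyrosine kinases, 3 were high: AXL, MET, the receptor of HGF, at 12.3 and 12.81, and EGFR at 12.29 and 11.61. EPHA2 (10.39 and 10.63), ERBB3 (9.26 and 9.63), FGFR1 (8.95 and 9.49) and ERBB2 (8.85 and 9.39) were clearly above background. The other probe sets of ERBB2 were at background, at 5.44 and 6.91 and at 4.89 and 4.89. KDR, the main VEGF receptor, was at background at 7.1 and 6.79, as were PDGFRA (6.83 and 6.92) and KIT (5.82 and 5.86). IGF1R (7.38 and 8.04) and INSR (7.0 and 7.26) lay on different sides of the limit. The lowest were ROS1 (5.76 and 5.47) and ROR2 (5.48 and 6.15).

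Of 44 cytokine receptors, 23 (52.3%) were above background, against 45.5% of all genes. IL6ST, the shared signalling chain of the IL6 family, read 12.07 and 12.32, OSMR, its partner for oncostatin M, 11.43 and 11.69 and TNFRSF12A, the receptor of TWEAK, 11.53 and 11.8; these 3 were high. IL6R was lower and near the limit on replicate 1, at 8.06 and 8.89. TNFRSF1A, the main TNF receptor, was at 10.67 and 11.28, just outside the high class. Receptor chains of leukocytes such as IL2RA (6.81 and 5.87), IL7R (6.56 and 6.43) and CSF2RB (4.67 and 4.28) were at background. Among 20 chemokine and MIF receptors, 14 were at background, and CD44, a co-receptor of MIF and receptor of hyaluronan, was the 1 high gene at 13.16 and 13.3. CXCR2, a receptor of the neutrophil chemokines, was at background at 5.04 and 5.04, and so were CXCR4 (6.8 and 6.18) and ACKR3 (4.91 and 4.76). CXCR1 read 8.54 and 8.07 and CD74, the MIF-binding chain, 7.72 and 7.56, each less than 1 unit above the limit on at least 1 array.

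Integrins were led by ITGB1, the chain shared by most matrix receptors, at 14.23 and 13.93, with ITGA6 (13.1 and 12.38) and ITGA3 (11.47 and 11.27), both laminin-binding partners, also high. ITGAV (10.47 and 10.74), ITGB5 (9.05 and 9.46) and ITGA5 (8.91 and 8.85) were clearly above background, while ITGA1 (4.93 and 4.93), ITGB8 (5.62 and 5.66) and ITGA2 (6.54 and 6.41) were at background. In all, 13 of 24 integrins (54.2%) were at background, against 46.3% of all genes. Of 27 receptors of TGF-beta, WNT and Notch, 14 (51.9%) were above background, against 45.5% of all genes. FZD2, a WNT receptor, was the 1 high gene at 11.04 and 11.78. TGFBR2 read 9.78 and 10.51 and NOTCH2 10.64 and 10.86. Of 30 G protein-coupled, scavenger and surface receptors, 6 were high, among them the transferrin receptor TFRC (12.64 and 13.39), the oxytocin receptor OXTR (12.68 and 12.5) and the adenosine receptor ADORA2B (12.19 and 12.24). For OXTR and for ADORA2B the array has 1 named probe set.

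**Figure D4:**
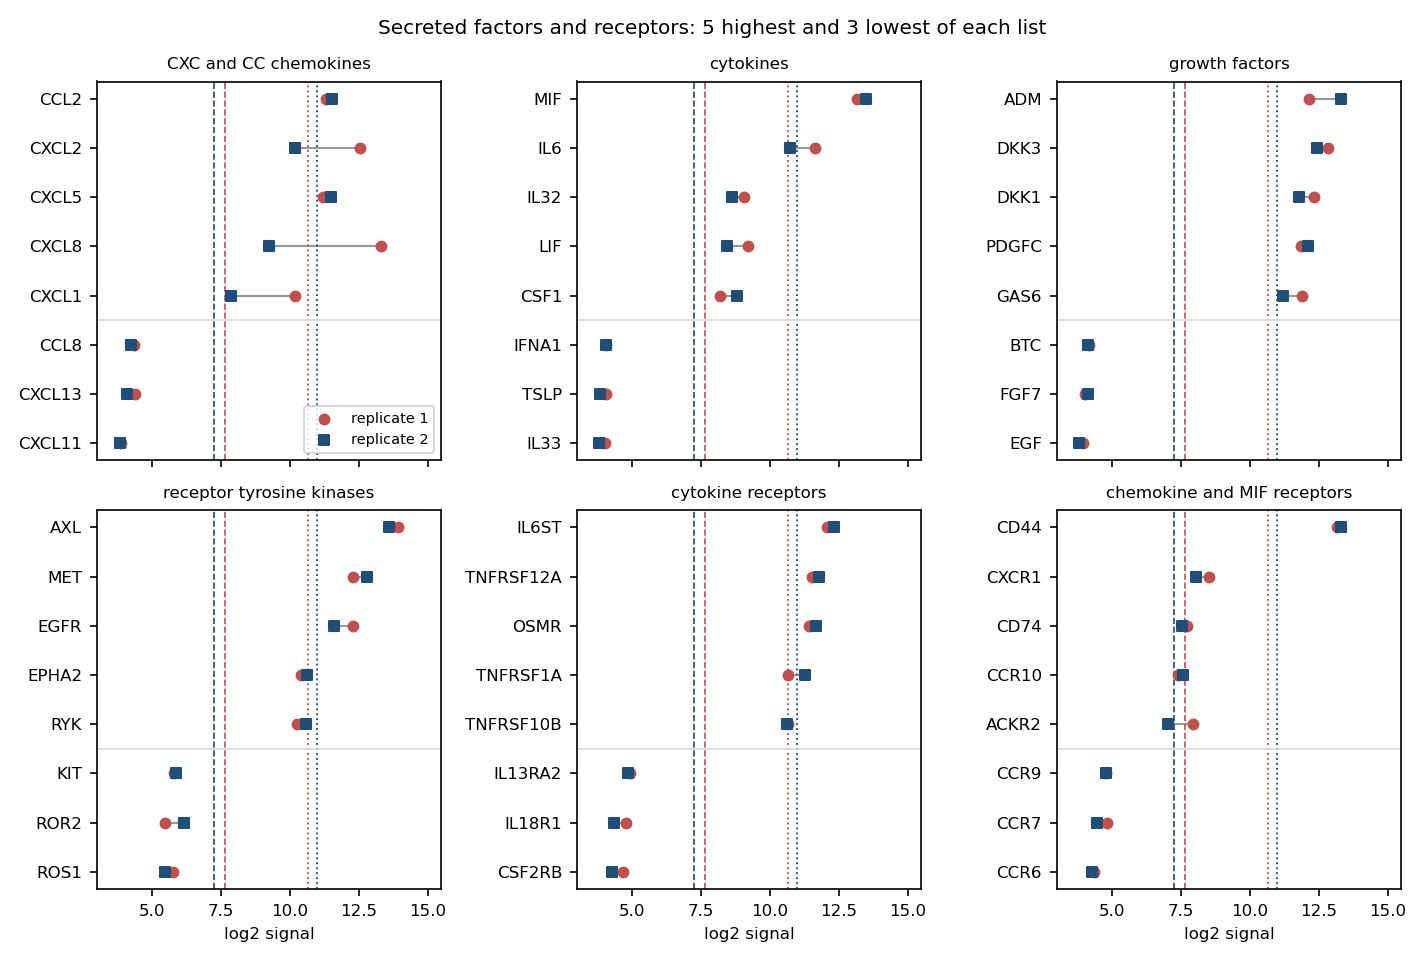
Log2 signal (x axis) on SN12C replicate 1 (circles) and replicate 2 (squares) for the 5 highest and 3 lowest genes of 3 lists of secreted factors and 3 of receptors. Dashed and dotted lines mark each array's background and high limits. CXCL8, CXCL2 and CXCL1 lie over 2 units apart between the arrays, while both values of CCL2, CXCL5 (probe set in use), MIF, AXL, MET and CD44 lie beyond the dotted lines.

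Ligand and receptor levels were set side by side for 71 textbook pairs, listed after the values were seen. In 9 pairs both genes were clearly above background: GAS6 with AXL, HBEGF with EGFR, NRG1 (9.33 and 9.85) with ERBB3, FGF2 with FGFR1, IL6 with IL6ST, LIF with LIFR (9.16 and 9.8), MIF with CD44, TGFB1 with TGFBR2 and PLAU with its receptor PLAUR (9.77 and 9.6). For NRG1, TGFB1 and TGFBR2 no second probe set was above background on both arrays. In 13 pairs the receptor was clearly above background and the ligand at background, as for MET and HGF, OSMR and OSM (6.98 and 6.99) and EPOR (10.68 and 9.72) and EPO. EPOR was read through a probe set that can bind related sequences, and none of its 4 other probe sets was above background on both arrays. In 7 pairs the ligand was clearly above and the receptor at background, as for VEGFA and KDR, PDGFC and PDGFRA, CXCL5 and CXCR2, CCL2 and CCR2 (5.36 and 5.33) and ADM and CALCRL (5.42 and 5.24). RNA signals say nothing of protein or of signalling.

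Metabolic genes had the highest median signal of the families described other than housekeeping, 10.11 on each array. Of 215 measured, 168 (78.1%) were above background and 77 (35.8%) high, against 45.5% and 8.79% of all genes. The glycolytic chain was high from hexokinase to lactate dehydrogenase: HK1 read 11.99 and 12.08, GPI 12.11 and 12.29, PFKP 11.91 and 12.17, ALDOA 13.57 and 13.66, TPI1 12.79 and 12.85, GAPDH 14.63 and 14.76, PGK1 13.31 and 13.51, PGAM1 13.82 and 13.95, ENO1 14.24 and 14.41, PKM 13.21 and 13.16 and LDHA 13.93 and 14.27. The tissue-restricted forms HK3 (7.44 and 7.22), PKLR (6.62 and 6.58) and PGAM2 (5.17 and 5.7) were at background. Among glucose carriers SLC2A3 (9.6 and 9.39) and SLC2A1 (9.08 and 9.17) were clearly above background, and SLC2A2, the carrier of the normal proximal tubule, was the lowest gene of the list at 4.24 and 4.1. The enzymes of glucose synthesis FBP1 (5.88 and 6.08), PCK1 (4.44 and 4.21) and G6PC1 (6.69 and 6.24), which the normal proximal tubule uses, were at background. The mitochondrial form PCK2 was above it and higher on replicate 1, at 8.92 and 7.56. GYS2 (4.01 and 4.01) had the lowest signal among the glycogen genes, and UGP2, which makes UDP-glucose, the highest at 11.34 and 11.78.

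Of 29 genes of the TCA cycle and respiration, 28 were above background and 20 high, led by the ATP synthase subunits ATP5F1A (13.31 and 13.69) and ATP5F1B (13.25 and 13.51) and by cytochrome c (CYCS, 13.01 and 13.3). The exception was PPARGC1A, a co-activator of mitochondrial biogenesis, at background at 5.39 and 4.97. Of 36 fatty acid and lipid droplet genes, 27 were above background. The desaturase SCD (12.25 and 12.14), the elongase ELOVL5 (12.07 and 12.26) and citrate lyase (ACLY, 11.7 and 12.08) were high. PLIN2, the droplet coat protein typical of clear cells, was clearly above background and not high at 9.05 and 9.89. The adipocyte genes PLIN1 (7.54 and 7.15), FABP4 (5.61 and 5.52) and LPL (6.31 and 6.14) were at background. Of 15 cholesterol synthesis genes, 14 were above background, with FDPS the 1 high gene at 11.45 and 11.59 and MVD the 1 at background at 6.89 and 7.14. IDI1, which isomerises isopentenyl diphosphate, read 10.66 and 11.76, over 1 unit higher on replicate 2.

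Among 39 genes of amino acid and one-carbon metabolism, 30 were above background and 12 high. Thymidylate synthase (TYMS) read 13.37 and 13.69, nicotinamide N-methyltransferase (NNMT) 13.31 and 13.53 and ornithine decarboxylase (ODC1) 12.98 and 13.57. The mitochondrial folate enzymes MTHFD2 (13.06 and 12.59) and SHMT2 (12.4 and 11.81) were high. Arginine-making ASS1, the entry enzyme, was at background at 6.63 and 6.8, whereas ASL, the next enzyme, read 9.27 and 9.26. The asparagine synthetase ASNS (11.38 and 9.07), the cystine carrier SLC7A11 (11.16 and 9.78) and the serine enzyme PSAT1 (11.82 and 10.81) were each over 1 log2 unit higher on replicate 1. The lowest of the list were MTHFD1L (4.98 and 4.93) and SHMT1 (5.64 and 5.7).

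The redox list held 23 high genes among 44 (52.3%), against 8.79% of all genes. Ferritin light chain (FTL) read 14.71 and 14.59, peroxiredoxin PRDX1 13.59 and 13.99 and thioredoxin reductase TXNRD1 13.61 and 13.62. The pentose phosphate enzymes TKT (12.99 and 12.73) and TALDO1 (12.63 and 12.98) were high. ALDH1A1 (4.35 and 4.32), AKR1C3 (4.5 and 4.61) and AKR1B10 (5.52 and 5.34) were at background, while the NRF2 target NQO1 was high at 12.52 and 12.84. HMOX1, the heme-degrading enzyme, was over 1 unit higher on replicate 1, at 11.72 and 10.48. The metallothioneins, small cysteine-rich proteins that bind zinc and copper, were high: MT2A at 14.34 and 14.06, MT1E at 13.84 and 13.78, MT1X at 13.79 and 13.59, MT1F at 13.14 and 12.89 and MT1G at 12.7 and 12.4. These genes are near-identical copies, so the array cannot assign the signal to a member with certainty.

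The 250 bases before the starts of MT2A and MT1X are shown because these genes are known to be induced by metals through metal response elements, and both gave high signal. They are from the same RefSeq build, 5′ to 3′ on the strand of the gene, and capitals mark matches on either strand to TGCNCNC, the core of that element.
MT2A (chr16:56608334-56608583, + strand): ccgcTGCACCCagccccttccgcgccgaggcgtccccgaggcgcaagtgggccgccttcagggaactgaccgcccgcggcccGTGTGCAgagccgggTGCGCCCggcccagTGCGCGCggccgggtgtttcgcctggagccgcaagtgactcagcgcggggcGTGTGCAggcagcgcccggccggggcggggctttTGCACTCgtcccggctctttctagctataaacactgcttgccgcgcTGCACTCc
MT1X (chr16:56682220-56682469, + strand): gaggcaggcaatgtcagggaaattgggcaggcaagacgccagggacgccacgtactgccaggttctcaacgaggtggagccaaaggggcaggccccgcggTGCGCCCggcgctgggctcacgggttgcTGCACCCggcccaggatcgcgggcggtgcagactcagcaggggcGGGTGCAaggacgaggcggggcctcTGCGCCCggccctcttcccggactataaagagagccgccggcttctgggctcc
MT2A had 7 matches and MT1X 4 in these 250 bases. The short core occurred in 49.1% of the 34788 windows, and at least 4 matches occurred in 1.75%. A match is not a measured site of metal response.

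Of 21 genes of the VHL-HIF oxygen-sensing axis and of chromatin tumour suppressors, 17 were above background and 8 high. These were 81.0% and 38.1% of the list, against 45.5% and 8.79% of all genes. The 4 chromatin genes, among them PBRM1 at 10.58 and 10.55 and SETD2 at 9.65 and 9.5, were above background and not high. HIF1A was high at 13.54 and 13.64, above EPAS1, which encodes HIF-2 alpha, at 10.73 and 11.67 through other probes; how much of that order is due to the probes was not tested. A second probe set of EPAS1 read 6.49 and 8.43. VHL, which marks both for degradation, was just above the limit at 7.81 and 7.27, and its second probe set was at background. Of their targets, BNIP3 was high at 11.68 and 12.5, NDRG1 was above background at 8.38 and 8.51, and EGLN3 was at background at 6.66 and 6.6. CA9 was not analysed here.

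Of 25 growth control and cell cycle genes, 19 (76.0%) were above background, against 45.5% of all genes. CDKN2A, a cell cycle inhibitor often lost in tumour lines, was high at 12.7 and 12.56, and its neighbour CDKN2B was at background at 6.97 and 7.08. Proliferation genes were high, with CCNB1 at 12.82 and 13.07, TOP2A at 12.15 and 12.14 and MKI67 at 10.73 and 11.04. The G1 cyclins CCND3 (8.98 and 10.87), CCNE1 (8.16 and 9.25) and CCNE2 (6.91 and 9.78) were each over 1 log2 unit higher on replicate 2. Of 19 cancer-testis antigens, 11 (57.9%) were at background and 3 (15.8%) high, against 46.3% and 8.79% of all genes. The 3 high genes were MAGEA6 at 12.76 and 12.91, MAGEA4 at 12.92 and 12.37 and the widely expressed MAGED1 at 11.01 and 11.42. The MAGEA genes are close copies, and the probe set of MAGEA6 can bind relatives. MAGEC1 (5.38 and 5.12), PAGE1 (4.96 and 4.96) and GAGE1 (4.59 and 4.82) were at background. Of 29 genes of antigen presentation and surface ligands, 17 (58.6%) were above background, against 45.5% of all genes. The 5 high genes included B2M at 13.74 and 13.38, HLA-C at 13.09 and 12.98 and HLA-B at 12.67 and 12.72. The others were HLA-E at 11.28 and 11.33 and HLA-G at 11.12 and 11.14. HLA-F (10.91 and 10.91) and the immunoproteasome subunit PSMB8 (10.33 and 11.09) were above background and not high on both arrays. The probe sets of HLA-B, HLA-C and HLA-G are of a type that can bind related sequences, as are those of HLA-F above background. The probe set in use for HLA-E is of this type too. Another HLA-E probe set, not of this type, was above background and not high at 9.18 and 9.8. Another HLA-F probe set, not of this type, was at background at 6.15 and 5.95. The part of signal from relatives in the HLA-E, HLA-G and HLA-F values was not tested. The class II gene HLA-DRA (6.18 and 6.18) and the class II activator CIITA (7.2 and 6.87) were at background, and so was CD274, which encodes PD-L1, at 6.98 and 6.3.

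Markers of other cell types were at or near background. Of 81 such genes, 63 (77.8%) were at background on both arrays and 12 (14.8%) above it, against 46.3% and 45.5% of all genes. TUBB3, a neuronal tubulin common in tumour lines, was the 1 gene clearly above background, at 13.04 and 13.56, through a probe set that can bind related tubulins. PTPRC (5.36 and 4.99), CDH5 (4.93 and 4.93) and PECAM1 (7.65 and 7.23), defining genes of leukocytes and endothelium, were at background on both arrays, as was ALB (5.43 and 4.46) of hepatocytes. SFTPB, a lung surfactant gene, read 9.04 and 7.82 and CD79A, a B cell gene, 8.35 and 7.95. The tubule gene AQP2 (7.92 and 7.6) lay below both of these on each array. The part of unspecific signal in values this near the limit was not tested.

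The 20 strongest signals, ranked by the lower of both percentiles, held 10 ribosomal protein genes, led by RPL41 at 14.96 and 14.92 and RPS18 at 14.88 and 14.85. With them stood the translation factor EEF1A1 (14.93 and 14.98), thymosin TMSB10 (14.72 and 14.77), ACTB (14.77 and 14.64), GAPDH and the mitochondrial genes COX2 (14.77 and 14.69) and ND4 (14.71 and 14.65). Of 60 ribosomal protein genes, 54 were high. Of the 21 housekeeping genes, 19 were high, and TBP, a general transcription factor of low abundance, was the weakest at 8.38 and 9.11.

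The 2 arrays did not read every gene alike. The median absolute difference was 0.24 log2 units, and 77.8% of genes lay within 0.5 units of each other. Replicate 1 was at least 1 unit higher for 119 genes (0.602%) and replicate 2 for 528 (2.67%). No gene was high on 1 array and at background on the other. The largest differences towards replicate 1 were MALAT1, a nuclear noncoding RNA, at 13.77 and 9.71, CXCL8, CXCL3, IL1A and NFKBIZ, an NF-kappaB regulator, at 11.41 and 8.9. Towards replicate 2 they were CD24, MAMDC2 at 6.26 and 9.25, CCNE2, AP1S3 at 5.63 and 8.12 and EBP, a sterol isomerase, at 8.88 and 11.16. Of the 29 chemokines 5 were at least 1 unit higher on replicate 1 and 0 on replicate 2, and of the 39 amino acid genes 3 and 0. Of the 25 growth control genes 0 were higher on replicate 1 and 3 on replicate 2. With 1 array on each side no test is possible. The spread of all values was 2.11 (SD) on replicate 1 and 2.25 on replicate 2, and the middle probe set of 18S ribosomal RNA read 8.68 and 7.54. The 3' signal exceeded the 5' signal by 0.47 and 0.23 for beta-actin. With both arrays quantile normalized again, 479 rather than 647 genes were at least 1 unit apart. The part of the 18S and 3' signals in the differences was not tested.

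**Figure D5:**
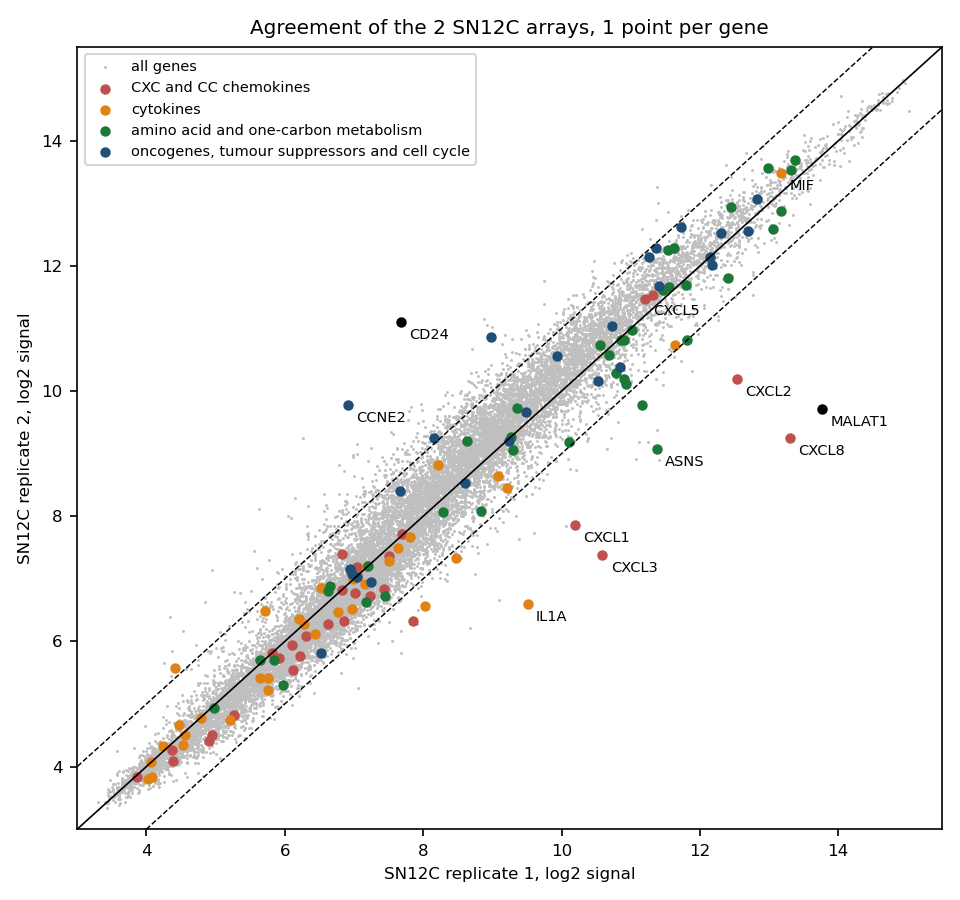
Log2 signal of each gene on SN12C replicate 1 (x axis) and replicate 2 (y axis); the solid line marks equal values and dashed lines a difference of 1. Coloured points are members of 4 lists and black points CD24 and MALAT1, with CXCL8, CXCL3, CXCL2, CXCL1, IL1A and ASNS below the lower dashed line and CCNE2 and CD24 above the upper one.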

How the data were processed

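The values are deposited log2 signals per probe set, 1 column per array. The submitters' processing notes name RMA and Partek with no versions. RMA subtracts background, equalises the distributions of arrays and summarises probes, which compresses low signals and differences; the sources used here do not say which arrays were processed together. No further scaling was applied. An array has no sequencing depth, and the precision of each value is limited by the number of arrays, 2.

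Probe sets were named by the platform annotation: 41097 of 54675 had 1 gene, 1801 several and 11721, controls aside, were not listed. Of the first, 41043 matched the gene table and gave 19775 genes, each read through its probe set with the highest mean over the SN12C arrays. Gene lists held 1034 genes, of which 97 were not analysed here. The members and lists were chosen with earlier results of these data known. The clear class, the ligand-receptor pairs and the promoters were chosen after the values were seen. Genes named were the markers, the highest and lowest members of each list, members at least 1 log2 unit apart, further members by their role (chosen after their values were seen), the strongest genes and the largest differences between arrays. Motifs were searched in 34788 distinct RefSeq promoter windows. One group has no comparison between groups, so no test was made. Alternatives changed the background limit, the high limit, the choice of probe set, the normalization and the arrays used. Counting was tested on simulated data. Python 3.11.15, pandas 2.3.3, numpy 2.4.6 and matplotlib 3.10.9 were used.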

Additional observations from a re-analysis of the deposited data

How the results depend on the processing

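Of 97 recomputed counts under 10 settings, 85 stayed within 1.5 times the reported count and 12 did not. With the 40th percentile of all probe sets as background limit, 14551 genes were above background and 4524 at background, and 39 tubule, 40 epithelial, 110 secreted and 152 receptor genes were above it. With the limit raised by 1 log2 unit, a setting chosen after seeing the data, 7 tubule and 49 receptor genes were above. Taking the median over probe sets left 9 tubule genes above. Without probe sets that can bind several transcripts, where 17100 genes remained, 38 secreted and 106 metabolic genes were above. With the high limit taken over all probe sets, 3128 genes were high. With 1 array alone, the counts above background ran from 9092 to 10534 for all genes and from 17 to 23 for tubule genes. No paired analysis was possible because the values come from 1 group and no test. Of the 477 list genes above background on both arrays, 141 had 1 probe set and 84 had others that were all at or below the limit on both arrays, so these calls rest on 1 probe set.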

Other observations

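Some strong signals have no single gene name in the annotation used. On both arrays 229 probe sets assigned to several genes and 164 unlisted probe sets exceeded the high limit of genes. Identical deposited values on both SN12C arrays were found for 1409 genes (7.13%), to all digits given. The 27 control probe sets for the bacterial genes dap, lys, phe, thr and trpn lay below the background limit of either array. They ranged from 3.7 to 6.41 on replicate 1 and from 3.63 to 6.18 on replicate 2. Those for the bacterial genes bioB, bioC and bioD were above the limits, the lowest at 8.25 and 8.14.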
